A study of Mus musculus with 12 samples.

Results

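The control libraries of both experiments of a study on YAP, the coactivator that the Hippo kinases restrain, were set against each other: mouse embryonic stem cells (ESCs) given a control plasmid (CTR OE, 3 libraries) and ESCs given a scrambled siRNA (CTR KD, 3 libraries). They make up 6 of the 12 libraries of the series and were chosen by their titles. The other 6 libraries come from cells of the same experiments with YAP lowered by siRNAs (YAP KD, 3 libraries) or raised from a plasmid (YAP OE, 3 libraries). All cells were E14Tg2a, a feeder-independent ESC line, kept on gelatin with serum and LIF and transfected transiently with a Lipofectamine reagent, and total RNA was sequenced. The labels describe the control plasmid as encoding GFP, whereas the study's own text calls it an empty vector. The siRNA was a Stealth negative control. The labels state that the RNA of each group came from 3 independent experiments, so the spread between replicates covers separate transfections. The kind of nucleic acid, the GFP it may encode and the experiment as a whole change together between the groups and cannot be told apart, and with no untransfected library analysed here which group departed from untreated cells cannot be told either. "Higher" and "lower" are therefore used for CTR OE relative to CTR KD.

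ESCs are held in the undifferentiated state by a circuit of transcription factors around Oct4 (Pou5f1), Sox2 and Nanog. LIF, acting through STAT3, sustains the factors of the naive state, such as Klf4, Tfcp2l1 and Esrrb. A control transfection is meant to leave this state alone, but the procedure itself meets several defence and stress systems in most cell types. Plasmid DNA in the cytosol can be sensed by cGAS and STING, double-stranded RNA by RIG-I and MDA5, and both routes lead to interferon-stimulated genes. Small interfering RNA enters the Argonaute machinery. ESCs are known for a weak interferon response.

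Levels are given as CPM, counts scaled to a library total of 1e+06 with TMM factors over all 12 libraries, and differences as log2 fold changes with their SE. The adjusted p comes from edgeR's quasi-likelihood test across 14744 genes with Benjamini-Hochberg adjustment, and a gene was called when it was under 0.05. The libraries held 45400000 to 53400000 expected counts, and at low levels counting error added to the spread between replicates. The common coefficient of biological variation was estimated at 5.1% and the median SE of a log2 fold change 0.068.

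The control libraries resembled each other about as much between groups as within the less uniform group. Over 12399 genes of at least 1 CPM, Pearson's r of log2 levels lay between 0.9984 and 0.9986 within CTR OE, between 0.9959 and 0.9981 within CTR KD, and between 0.9962 and 0.9976 across the groups. CTR KD replicate 2 stood apart: its r with CTR KD replicate 1 was 0.9959, below its r of 0.9972 with CTR OE replicate 1. Every pair of libraries differed by more than sampling noise, with a chi-square per degree of freedom of at least 3.39. Results that turn on 1 library are therefore given with and without it.

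Of 14744 genes tested, 108 (0.733%) were called, 67 higher (0.454%) and 41 lower (0.278%) in CTR OE. At these shares a list of the sizes used below would usually hold no call, so a list without a call says little by itself. A positive log2 fold change, called or not, was found in 7769 of the 14744. Of all tested genes, 89.2% lay within 1.2-fold between the groups. Among the called genes 28 reached 1.5-fold (23 higher and 5 lower) and 3 reached 2-fold, and the median absolute log2 fold change was 0.42. In all 108 the 3 CTR OE libraries lay on 1 side of the 3 CTR KD libraries, a pattern seen in 2422 of the tested genes (16.4%).

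The number of calls depended on single libraries. Without CTR KD replicate 2, 420 of 14838 genes tested were called (260 higher and 160 lower), and all 108 were among them. Without CTR KD replicate 1 it was 145, without CTR KD replicate 3 it was 28, and without CTR OE replicates 1, 2 and 3 it was 26, 39 and 20. List counts given below without CTR KD replicate 2 stand beside its larger share, 420 of 14838. Of the 108 genes, 17 were called in every one of these 6 fits: Anxa2, Anxa3, Hist1h2br, Id2, Igf2, Krt7, Krt8, Krt18, Lrp2, Peg10, Prss23, Tagln and Thbs1 among the higher, and Gm10052, Hist1h2bq, Ncl and Nqo1 among the lower. All other genes named as called below lost the call in at least 1 of the 6 fits. Some kept it in few of them. Abca1, Tead3 and Perp were called in 1 of the 6, and Ajuba, Ptpn14, Tead4, Mt1 and Bst2 in 2. Counts of Hist1h2br, Gm10052 and Hist1h2bq were not whole, a mark of reads divided with other entries, so their levels as single genes are uncertain.

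**Figure D1:**
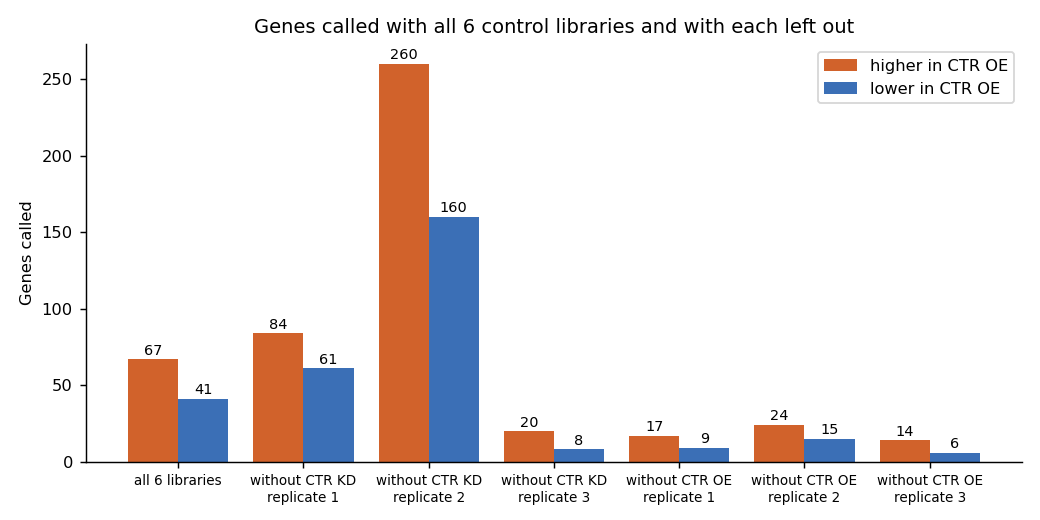
Number of genes called (y axis) higher (orange) or lower (blue) in CTR OE with all 6 control libraries and after leaving out each in turn (x axis). Leaving out CTR KD replicate 2 raised the count from 108 to 420 genes, and leaving out any library of CTR OE, or CTR KD replicate 3, brought it to between 20 and 39.

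**Figure D2:**
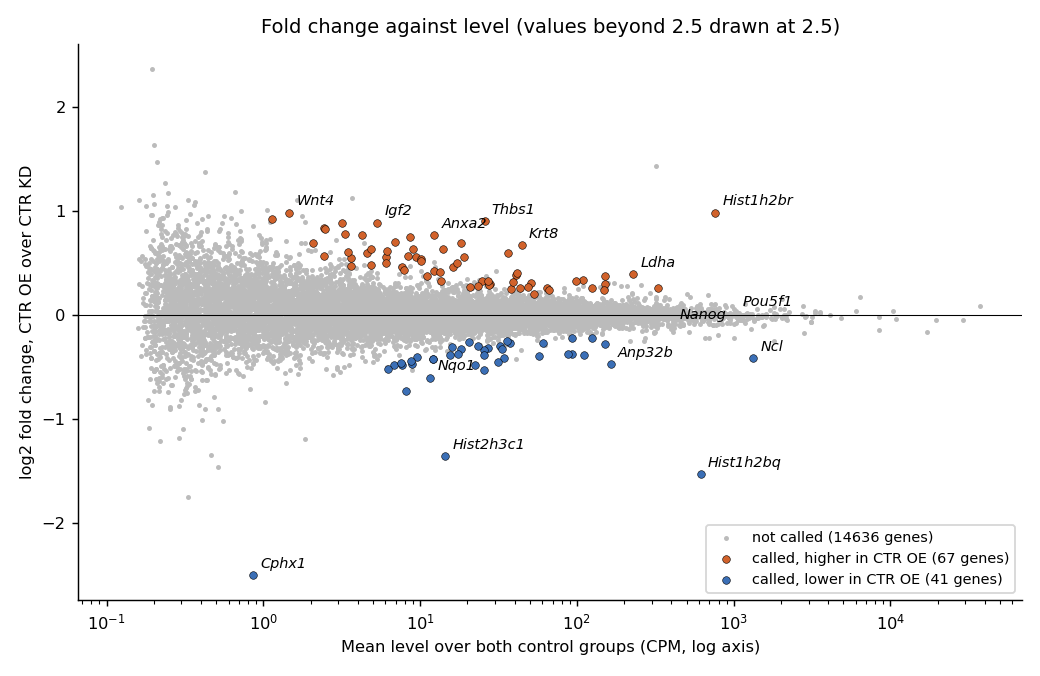
Log2 fold change of CTR OE over CTR KD (y axis) against the mean level of both groups in CPM (x axis, log scale) for 14744 genes, with called genes in orange (67 higher) and blue (41 lower). Pou5f1 and Nanog lie near 0, Thbs1 and Krt8 stand above genes of like level, and the histone entries Hist1h2br and Hist1h2bq lie far apart on opposite sides, with Cphx1 drawn at the lower edge although its value lies beyond it.

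Both groups expressed the markers of undifferentiated ESCs at like levels. Pou5f1, which encodes Oct4, was at 988, 1059.9 and 1032 CPM in CTR KD and at 1050.2, 1045 and 1012 CPM in CTR OE. The groups overlapped, and the log2 fold change was 0.017 with a 95% interval of -0.052 to 0.087 (adjusted p = 0.927). Nanog was at 407, 418 and 435 CPM in CTR KD and 378, 397 and 391 CPM in CTR OE, lower in every CTR OE library, with a log2 fold change of -0.11 ± 0.037 (SE) that did not pass the test (adjusted p = 0.325). Sox2 averaged 430.2 ± 26.5 and 416 ± 7.72 CPM (SD, n = 3 each), and Zfp42, which encodes Rex1, 763 ± 16.6 and 738 ± 5.08 CPM. None of the 12 tested genes of the pluripotency core was called, with a median log2 fold change of -0.00087 beside 0.0061 over all genes tested. In this list 1 gene was called without CTR KD replicate 2. The 12 genes summed to between 4551 and 4782 CPM in CTR KD and between 4605 and 4707 CPM in CTR OE.

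The naive and the formative genes leaned in opposite directions without a call. Of 17 naive genes 2 had a positive log2 fold change and the median was -0.067, whereas of 13 tested formative and primed genes 10 had a positive one and the median was 0.11. Over all genes tested, 7769 of 14744 had a positive one. Tfcp2l1, a transcription factor of the LIF-driven naive circuit, was at 538, 544 and 569.8 CPM in CTR KD and 481, 491 and 497 CPM in CTR OE (adjusted p = 0.0832). Prdm14, which restrains FGF signalling and the de novo methyltransferases in naive cells, was at 35.2, 33.8 and 33.4 CPM and 28.9, 29.2 and 30.7 CPM (adjusted p = 0.107). The groups did not overlap in either gene, yet neither passed the test. After leaving out CTR KD replicate 2, 3 naive genes were called lower and 3 formative genes higher. Among all 14838 genes tested in that fit, 160 were called lower and 260 higher.

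Dnmt3l, the cofactor of the de novo DNA methyltransferases on which the study centred, sat just outside the threshold. It was at 279, 276 and 263 CPM in CTR KD and at 326, 309.8 and 305 CPM in CTR OE. Every CTR OE library was above every CTR KD library, with a log2 fold change of 0.21 ± 0.041 and an adjusted p of 0.0617, and it was called without CTR KD replicate 2. Dnmt3b, a de novo methyltransferase, was at 226, 249 and 222 CPM and 303, 272 and 273 CPM (log2 fold change 0.29, adjusted p = 0.0591). None of 12 genes tied to DNA methylation was called, and 4 were called without CTR KD replicate 2. That fit called 420 of 14838 genes tested. For scale, Dnmt3l averaged 181 ± 4.40 CPM in YAP KD and 378 ± 15.7 CPM in YAP OE, so the CTR groups lay between the YAP groups.

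Yap1 itself was at 116, 135 and 125 CPM in CTR KD and 134, 130.2 and 134 CPM in CTR OE. These values overlapped, and the log2 fold change of 0.084 had a 95% interval of -0.017 to 0.19 (adjusted p = 0.646). YAP KD averaged 56.7 ± 1.80 CPM and YAP OE 259 ± 16.6 CPM.

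**Figure D3:**
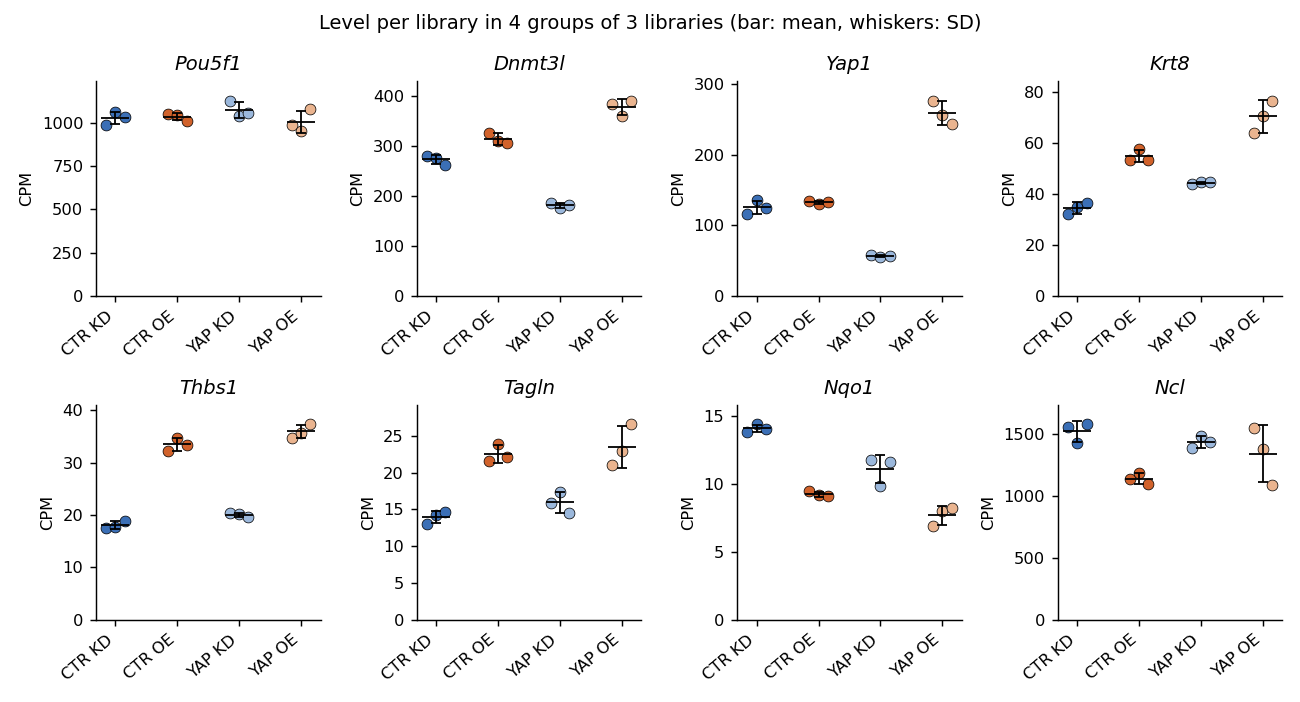
Level in CPM (y axis, from 0) of 8 genes in each library of 4 groups (x axis, 3 libraries each), with bars for the mean and whiskers for the SD. Pou5f1 and Yap1 overlapped between CTR KD and CTR OE, Krt8, Thbs1 and Tagln were higher in all 3 CTR OE libraries, and Nqo1 and Ncl were lower in all 3.

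Among the lists, that of the actin cytoskeleton held the most genes called higher. The actin-regulated coactivator MRTF binds serum response factor (SRF) when free actin monomer falls, and SRF then drives contractile and cytoskeletal genes through a DNA element called the CArG box. Of 21 tested genes of this list 6 were called higher and none lower, beside 0.454% and 0.278% of all genes tested. In 20 of 21 the log2 fold change was positive, beside 7769 of all 14744, and the median was 0.19.

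Thbs1 (GRCm38.p6 chr2:118111876-118127133), which encodes the secreted matrix protein thrombospondin-1, was at 17.5, 17.6 and 18.9 CPM in CTR KD and 32.3, 34.7 and 33.4 CPM in CTR OE. Levels were 1.86-fold higher, with the smallest adjusted p among genes with whole counts (log2 fold change 0.90 ± 0.051, adjusted p = 6.74e-05). Tagln, an actin-binding protein of smooth muscle also called SM22, was at 13, 14.2 and 14.7 CPM and 21.5, 23.9 and 22.1 CPM (log2 fold change 0.69 ± 0.062, adjusted p = 0.0015). Acta2, smooth muscle actin, was at 7.35, 7.09 and 8.53 CPM and 10.7, 11.5 and 11.5 CPM (log2 fold change 0.56 ± 0.079, adjusted p = 0.0145). Acta1, skeletal muscle actin, was at 3.12, 4.02 and 3.88 CPM and 5.46, 5.50 and 5.70 CPM (log2 fold change 0.60 ± 0.10, adjusted p = 0.026). In each of these genes no CTR OE library fell within the CTR KD range. RSEM divided reads between Acta1 or Acta2 and other genes in some libraries, as their counts were not whole. Tagln overlaps Pcsk7, and no strand setting is given in the sources used here.

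Tpm1, a tropomyosin that coats actin filaments, was at 83.5, 89.2 and 91.5 CPM in CTR KD and 107, 116 and 108 CPM in CTR OE (log2 fold change 0.33 ± 0.048, adjusted p = 0.016). Cnn2, the calponin of non-muscle cells, was at 45.2, 47.4 and 44.4 CPM and 56.1, 56.4 and 56.1 CPM (log2 fold change 0.30 ± 0.040, adjusted p = 0.0101). Beta-actin and SRF itself did not pass the test. Actb averaged 2679 ± 162 and 2824 ± 113 CPM (log2 fold change 0.080, adjusted p = 0.621), and Srf 36.2 ± 3.79 and 41 ± 1.56 CPM (log2 fold change 0.18, adjusted p = 0.372). Zyx, which encodes the focal adhesion protein zyxin, was at 7.42, 7.75 and 7.60 CPM and 10.3, 8.96 and 9.89 CPM and just missed the threshold (adjusted p = 0.056). Outside the list and named after its values were seen, the actin crosslinker filamin C (Flnc) was at 9.24, 12.1 and 11.5 and 17, 16.5 and 17.4 CPM (log2 fold change 0.64, adjusted p = 0.0127). The list's count was 11 without CTR KD replicate 2, between 2 and 6 without any other library, and 3 with the replicate number as a block, always higher. Thbs1 and Tagln were called in all of these fits.

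YAP and TEAD control genes of cell contact and the cytoskeleton as well as feedback regulators of the Hippo pathway, and several of them were higher although Yap1 mRNA did not differ by the test. Of 19 tested YAP/TEAD target genes 3 were called higher and none lower, beside 0.454% and 0.278% of all genes tested. The median log2 fold change was 0.26. Ajuba, a LIM protein that restrains the Hippo kinase LATS, was at 129, 145 and 132 CPM in CTR KD and 168, 165 and 166 CPM in CTR OE (log2 fold change 0.30 ± 0.046, adjusted p = 0.0194). Ptpn14, a phosphatase that binds YAP and holds it back, was at 33.2, 39.8 and 34.5 CPM and 47.6, 48.5 and 45.9 CPM (log2 fold change 0.40 ± 0.064, adjusted p = 0.02). Igfbp3, which binds insulin-like growth factors, was at 10.9, 12.4 and 11.3 CPM and 14.7, 15.7 and 15.4 CPM (log2 fold change 0.41 ± 0.063, adjusted p = 0.0186). In all 3 genes the CTR groups did not overlap. The classical targets did not pass: Ctgf was at 24.2, 24.4 and 22.4 CPM and 23.2, 24.4 and 25.2 CPM (log2 fold change 0.042, adjusted p = 0.856), and Cyr61 at 4.92, 7.38 and 6.77 CPM and 8.69, 8.04 and 8.36 CPM (log2 fold change 0.39, adjusted p = 0.271). The count was 6 without CTR KD replicate 2, and between 0 and 3 without any other library.

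For the size of these differences beside those that go with YAP itself, Ajuba averaged 99.6 ± 4.41 CPM in YAP KD and 173 ± 5.69 CPM in YAP OE, and Ptpn14 27.6 ± 1.28 and 57.9 ± 3.20 CPM. The CTR means of both genes lay inside those of the YAP groups. Igfbp3 averaged 12.7 ± 0.933 CPM in YAP KD and 17.6 ± 1.53 CPM in YAP OE. Its CTR KD mean of 11.5 ± 0.788 CPM lay below that of YAP KD, so it was not inside the YAP groups.

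Among 22 genes of the YAP pathway, 2 were called higher and 1 lower, beside 0.454% and 0.278% of all genes tested. The median log2 fold change was 0.010. The count of 3 was the same without CTR KD replicate 2 and between 0 and 2 without any other library. Beside Ptpn14 these were 2 of the DNA-binding partners of YAP. Tead3 was at 2.87, 3.00 and 3.22 CPM in CTR KD and 4.29, 3.99 and 4.30 CPM in CTR OE (log2 fold change 0.47 ± 0.088, adjusted p = 0.0467). Tead4, which specifies the trophectoderm in the embryo, was lower, at 18.2, 20.8 and 19.9 CPM and 15.1, 15.4 and 14.6 CPM (log2 fold change -0.38 ± 0.060, adjusted p = 0.02). The call of Tead3 was lost with upper-quartile factors, DESeq2 and limma-voom, among other alternatives.

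The promoters of the genes called higher were searched for the elements of these regulators, to show what sequence lies there. Windows of 250 bases before to 50 after the start were taken from a table of RefSeq starts (GRCm38.p6), in which 49 of the 67 genes called higher and 30 of the 41 called lower were matched. Thbs1 and Tagln were not among them and were not searched. GGAATG, the core that TEAD factors bind, was searched on both strands and occurred in 15 of 49 genes called higher (30.6%), in 6 of 30 called lower (20%) and in 1625 of 11133 genes tested (14.6%). Over all 32851 windows the share was 14.7%. The CArG box was searched in a strict form only, CC followed by 6 bases of A or T and then GG. It occurred in 5 of 49 genes called higher (10.2%), in none of 30 called lower, in 1.55% of genes tested and in 1.63% of all windows. A gene was counted when any of its windows held the letters, whereas the share over all windows is per window. A match says that the letters are present, not that a factor binds them.

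Among the actin and YAP/TEAD genes called higher, the windows of Ajuba, Ptpn14, Tead3, Acta1, Acta2 and Tpm1 held GGAATG. Those of Acta1 and Cnn2 held a CArG box in the strict form, and that of Igfbp3 held neither element. Those of 4 genes are shown because they carry these letters beside a measured difference. Only the 250 bases before the start are printed, 5′ to 3′ on the strand of the gene. Capitals mark GGAATG or its complement CATTCC in the first 3 and the CArG box in Acta1.
Ajuba (chr14:54577662-54577911, minus strand): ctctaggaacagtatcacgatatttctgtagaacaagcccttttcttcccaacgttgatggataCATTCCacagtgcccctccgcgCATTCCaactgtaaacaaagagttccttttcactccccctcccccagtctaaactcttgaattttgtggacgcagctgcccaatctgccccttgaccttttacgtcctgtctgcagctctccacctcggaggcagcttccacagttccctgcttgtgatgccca
Ptpn14 (chr1:189728018-189728267, plus strand): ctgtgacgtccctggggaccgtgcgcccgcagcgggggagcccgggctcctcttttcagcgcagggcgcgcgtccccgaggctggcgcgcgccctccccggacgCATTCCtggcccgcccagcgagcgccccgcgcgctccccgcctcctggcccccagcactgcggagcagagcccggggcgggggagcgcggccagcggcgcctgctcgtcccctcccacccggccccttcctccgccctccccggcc
Acta2 (chr19:34255374-34255623, minus strand): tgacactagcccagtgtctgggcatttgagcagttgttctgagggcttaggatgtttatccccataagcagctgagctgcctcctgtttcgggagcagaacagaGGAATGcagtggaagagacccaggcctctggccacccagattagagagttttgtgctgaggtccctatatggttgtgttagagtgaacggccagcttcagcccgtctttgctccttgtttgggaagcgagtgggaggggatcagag
Acta1 (chr8:123894776-123895025, minus strand): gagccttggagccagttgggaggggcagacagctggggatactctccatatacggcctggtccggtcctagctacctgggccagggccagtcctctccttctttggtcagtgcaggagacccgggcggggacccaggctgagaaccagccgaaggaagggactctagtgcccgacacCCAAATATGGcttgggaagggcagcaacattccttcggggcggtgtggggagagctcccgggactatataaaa
Ajuba held 2 matches, which began 186 and 164 bases before the start, and those of Ptpn14 and Acta2 began 146 bases before it. The starts used for Ptpn14 and Acta2 lie inside the annotated genes, and the match of Acta2 is itself within the gene's bounds. The CArG box of Acta1 began 73 bases before the start. The printed Acta2 stretch holds ccctatatgg and ccttgtttgg, which depart from the strict form by a single base each and were not counted.

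Some keratins of simple epithelia and some annexins were called higher, in families that were singled out after their values had been seen. Keratins 8 and 18 pair into the intermediate filaments of the first epithelia of the embryo. Krt8 (chr15:101996711-102004342) was at 32, 34.7 and 36.6 CPM in CTR KD and 53.3, 57.4 and 53.3 CPM in CTR OE (log2 fold change 0.67 ± 0.055, adjusted p = 0.000841). Its partner Krt18 (chr15:102028216-102032026) was at 27.1, 29 and 31.1 CPM and 42, 47.7 and 41.3 CPM (log2 fold change 0.59 ± 0.067, adjusted p = 0.00506). Krt7 (chr15:101412403-101427806), a partner of Krt19 in simple epithelia, was at 2.85, 3.32 and 3.26 CPM and 5.23, 5.67 and 5.21 CPM (log2 fold change 0.77 ± 0.089, adjusted p = 0.00506). Krt19 was at 4.85, 5.43 and 5.56 CPM and 7.59, 9.94 and 8.22 CPM (log2 fold change 0.70, adjusted p = 0.0179). The groups did not overlap in any of the 4, which were all the keratins called among 12 tested. The share called higher over all genes tested was 0.454%. Of the 12, 6 had a positive log2 fold change, and the values lay between -0.46 and 0.77 with a median of 0.12.

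Of 10 tested annexins, calcium-dependent membrane-binding proteins, 3 were called higher, beside 0.454% of all genes tested. A positive log2 fold change was found in 6 of the 10. The values lay between -0.17 and 0.77 with a median of 0.10. Anxa2 was at 9.09, 8.98 and 9.36 CPM in CTR KD and 14.7, 16.1 and 15.8 CPM in CTR OE (log2 fold change 0.77 ± 0.059, adjusted p = 0.000587). Anxa3 was at 6.63, 6.19 and 6.52 CPM and 10.8, 11.5 and 10.2 CPM (log2 fold change 0.75 ± 0.070, adjusted p = 0.00168), and Anxa1 averaged 8.27 ± 0.701 and 11.9 ± 0.764 CPM (log2 fold change 0.53, adjusted p = 0.0162).

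Krt8 and Krt18 are also markers of trophoblast, so the marker lists of other cells were read in full. Of 14 tested germ layer and trophoblast markers, Krt8, Krt18 and Nes were called higher, beside 0.454% of all genes tested. The list median was -0.021. The list's 18 genes summed to between 159.7 and 175.2 CPM in CTR KD and between 198.7 and 214.2 CPM in CTR OE, and 10 of the 18 averaged under 1 CPM. Most of that difference lay in Krt8, Krt18 and Nes, so the sum adds little to these genes. They averaged 34.4, 29.1 and 21.9 CPM in CTR KD and 54.7, 43.7 and 27.4 CPM in CTR OE. Nes, the intermediate filament nestin of neural progenitors, was at 21, 22.4 and 22.3 CPM and 27.4, 28.2 and 26.6 CPM (log2 fold change 0.33, adjusted p = 0.0162), whereas none of 8 tested neural markers was called.

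Markers of other cells were read in the same way. Primitive endoderm markers summed to between 228.1 and 252.1 CPM in CTR KD and between 255.5 and 270.5 CPM in CTR OE, with 8 of 15 under 1 CPM and Ttr at 0. Of 13 tested, the endocytic receptor megalin (Lrp2) was called, at 96.8, 97.7 and 97.5 CPM and 119, 124 and 124 CPM (log2 fold change 0.34 ± 0.035, adjusted p = 0.00342). The share called higher over all genes tested was 0.454%. The difference in Lrp2 was of like size to that in the sum. Fibroblast and feeder markers summed to between 80.87 and 86.83 CPM and between 91.51 and 95.44 CPM, with 12 of 14 under 1 CPM, Lum at 0 and none called of 9 tested (2 without CTR KD replicate 2). Vim made up most of the sum, at 52.1 ± 1.75 and 60.3 ± 1.86 CPM (adjusted p = 0.0565), and Col1a1 averaged 0.235 ± 0.0712 and 0.619 ± 0.110 CPM (adjusted p = 0.0636). The part of other cells in these differences was not tested, and in bulk RNA more cells of a type and more RNA per cell cannot be told apart.

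Several secreted and signalling proteins had some of the largest fold changes among the genes called higher, most of them at low levels. Wnt4, a Wnt ligand, was at 0.922, 1.06 and 0.955 CPM in CTR KD and 1.72, 2.03 and 2.07 CPM in CTR OE (log2 fold change 0.98 ± 0.14, adjusted p = 0.0153). Wisp1, a secreted matricellular protein, was at 0.812, 0.792 and 0.747 CPM and 1.27, 1.51 and 1.65 CPM (log2 fold change 0.92 ± 0.16, adjusted p = 0.0314). Prss23, a secreted serine protease, was at 2.37, 2.09 and 2.26 CPM and 3.90, 4.21 and 4.21 CPM (log2 fold change 0.88 ± 0.094, adjusted p = 0.00388). In these 3 genes every CTR OE library lay above the CTR KD range.

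Fosl2, a component of the AP-1 transcription factor, averaged 1.75 ± 0.294 CPM in CTR KD and 3.12 ± 0.0999 CPM in CTR OE (log2 fold change 0.83, adjusted p = 0.0178). Car4, a carbonic anhydrase anchored at the cell surface, averaged 2.46 ± 0.354 and 4.18 ± 0.183 CPM (log2 fold change 0.78, adjusted p = 0.016), and Mroh6 1.78 ± 0.199 and 3.14 ± 0.280 CPM (log2 fold change 0.83, adjusted p = 0.0162). Id2, an inhibitor of basic helix-loop-helix factors, was the 1 gene called among 12 of the BMP and Id list, at 7.11, 6.49 and 6.75 CPM and 10.2, 10.2 and 9.66 CPM (log2 fold change 0.57 ± 0.065, adjusted p = 0.00506). The share called higher over all genes tested was 0.454%. Tfdp1, the DP1 partner of the E2F factors, was at 116, 112 and 112 CPM and 140.5, 134 and 130.1 CPM, a small difference at a high level (log2 fold change 0.26 ± 0.040, adjusted p = 0.0192).

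Of 25 tested imprinted genes, 2 paternally expressed ones were called higher and none lower, beside 0.454% and 0.278% of all genes tested. The median was 0.17. Igf2, the fetal growth factor, was at 3.56, 4.23 and 3.43 CPM in CTR KD and 7.26, 6.65 and 6.82 CPM in CTR OE (log2 fold change 0.89 ± 0.092, adjusted p = 0.00342). Peg10, a gene derived from a retrotransposon, was at 127, 132 and 135 CPM and 172, 172 and 166 CPM (log2 fold change 0.38 ± 0.037, adjusted p = 0.00225). The groups were well separated in both. When CTR KD replicate 2 was left out, 3 imprinted genes were called higher and 1 lower. The list median lay between 0.096 and 0.18 when 1 library was left out.

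Of 21 glycolysis genes, 2 at the lactate end of the pathway were called higher, beside 0.454% of all genes tested. The median was 0.086. Leaving out CTR KD replicate 2 gave 4 called higher and 1 lower, and without any other library between 0 and 3 were called. Ldha, which turns pyruvate into lactate, was at 198, 189 and 209 CPM in CTR KD and 261, 240.4 and 278 CPM in CTR OE (log2 fold change 0.39 ± 0.057, adjusted p = 0.016). Slc16a3, the lactate exporter MCT4, was at 15.2, 14.2 and 17.2 CPM and 22.4, 19.6 and 26.1 CPM (log2 fold change 0.56 ± 0.10, adjusted p = 0.0467). The spread within CTR OE was wide in Slc16a3, and its call was lost with upper-quartile factors and limma-voom. Pkm, pyruvate kinase, averaged 1932 ± 7.49 and 2134 ± 116 CPM and did not pass (adjusted p = 0.194). None of 21 hypoxia-inducible and none of 40 oxidative phosphorylation genes was called, with medians of 0.056 and -0.0073. There was 1 hypoxia-inducible gene called higher without CTR KD replicate 2. On the lower side, Mpc1, a subunit of the carrier that takes pyruvate into mitochondria, was at 10.4, 9.79 and 10.6 CPM and 7.10, 7.37 and 7.60 CPM (log2 fold change -0.48 ± 0.064, adjusted p = 0.0122), with counts that were not whole in 3 libraries.

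The lower genes included enzymes of detoxification. NRF2 is the transcription factor that answers oxidative and electrophilic stress, and quinone reductase, glutathione transferases and carbonyl reductases are among its best known targets. Of 19 tested NRF2 antioxidant genes 3 were called lower and none higher, beside 0.278% and 0.454% of all genes tested. In 2 of 19 the log2 fold change was positive, beside 7769 of all 14744, and the median was -0.11. Nqo1 (chr8:107388225-107403205), the quinone reductase, was at 13.8, 14.4 and 14 CPM in CTR KD and 9.42, 9.19 and 9.06 CPM in CTR OE, 0.658 times the CTR KD level (log2 fold change -0.60 ± 0.054, adjusted p = 0.0015). Cbr3, a carbonyl reductase, was at 17.2, 17.8 and 17.4 CPM and 13.3, 13.6 and 13.1 CPM (log2 fold change -0.39 ± 0.049, adjusted p = 0.00989). Gstm1, a glutathione transferase, was at 34.3, 37.6 and 34.8 CPM and 29.7, 28.2 and 28.9 CPM (log2 fold change -0.29 ± 0.049, adjusted p = 0.0265). In all 3 the highest CTR OE library was below the lowest CTR KD library. Some counts of Gstm1 were not whole, so that reads were divided with other entries.

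Other NRF2 genes differed less. Txnrd1, thioredoxin reductase, averaged 330.2 ± 14.9 and 294 ± 2.66 CPM (adjusted p = 0.12), and Gclc, which catalyses the first step of glutathione synthesis, 57.3 ± 0.894 and 51.3 ± 0.380 CPM (adjusted p = 0.112). Hmox1, heme oxygenase, averaged 33.2 ± 2.05 and 34.2 ± 1.82 CPM (log2 fold change 0.046, adjusted p = 0.851). Outside the list and named after their values were seen, Gstm2 (13.9 ± 0.361 and 10.3 ± 0.884 CPM), the prostaglandin and aldehyde reductase Ptgr1 (36.9 ± 1.61 and 29.3 ± 1.82 CPM) and catalase (Cat, 100.3 ± 2.75 and 85.7 ± 1.12 CPM) were also called lower. Some counts of Gstm2 were not whole, as in Gstm1. The NRF2 count was 5 without CTR KD replicate 2, between 1 and 3 without any other library and 1 with the replicate number as a block. The core of the antioxidant response element, TGACNNNGC on either strand, occurred in the promoter windows of 5 of 30 genes called lower (16.7%), in 16.7% of genes tested and in 12.4% of all windows. It did not occur in the windows of Nqo1, Cbr3 and Gstm1, which says only that these letters are not in these stretches.

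Genes of metal and lipid handling were lower in small numbers. The metallothionein Mt1, which buffers zinc and copper, was at 12.8, 13.8 and 14.9 CPM in CTR KD and 10.5, 9.94 and 10.4 CPM in CTR OE (log2 fold change -0.42 ± 0.067, adjusted p = 0.02), as the 1 gene called among 6 tested. The share called lower over all genes tested was 0.278%. Scd1, the stearoyl-CoA desaturase, was at 29.3, 28.5 and 29.9 CPM and 23, 21.1 and 22.7 CPM (log2 fold change -0.39 ± 0.049, adjusted p = 0.00949). Abca1, the cholesterol exporter, was at 137, 132 and 135 CPM and 111, 115 and 119 CPM (log2 fold change -0.22 ± 0.039, adjusted p = 0.0382). None of 25 sterol synthesis genes was called. Without CTR KD replicate 2, 3 genes of the metal list were called lower and 1 sterol synthesis gene higher. In each of the fatty acid and lipid handling lists 2 genes were then called lower and 1 higher. Without any other library between 0 and 2 of each list were called. In Scd1 the counts were not whole in any control library.

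The most abundant lower gene was Ncl, which encodes nucleolin, a protein of ribosomal RNA transcription and processing. It was at 1559.5, 1425 and 1578 CPM in CTR KD and 1138, 1184 and 1093 CPM in CTR OE (log2 fold change -0.41 ± 0.046, adjusted p = 0.00506). Its introns hold genes of small nucleolar RNAs, among them Snora75 and Snord82. Anp32b, an acidic nuclear phosphoprotein that chaperones histones, was at 177, 201 and 196 CPM and 142, 142 and 129 CPM (log2 fold change -0.47 ± 0.057, adjusted p = 0.00689), and Hmgn5, a nucleosome-binding protein, at 31.4, 26.5 and 32.2 CPM and 19.7, 22.2 and 20.4 CPM (log2 fold change -0.53 ± 0.078, adjusted p = 0.0162). No CTR OE library reached the CTR KD range in any of the 3. None of 87 cytosolic ribosomal protein genes was called (median -0.0098), and none of 75 tested small noncoding RNA genes (median -0.16, with 2 called without CTR KD replicate 2). Of these 75, 10 had a positive log2 fold change. All small noncoding RNA entries together took between 11.8% and 12.7% of the counts of a control library.

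The remaining called genes lowest by fold change were carriers and surface proteins at low levels. Hhip, which binds Hedgehog ligands, averaged 26.2 ± 1.73 CPM in CTR KD and 18.7 ± 1.06 CPM in CTR OE (adjusted p = 0.0101). Slc16a9 averaged 7.40 ± 0.176 and 5.12 ± 0.348 CPM (adjusted p = 0.0145), the peptide transporter Slc15a1 8.71 ± 0.539 and 6.28 ± 0.536 CPM (adjusted p = 0.0343), Lrrc15 8.92 ± 0.485 and 6.37 ± 0.372 CPM (adjusted p = 0.0179) and Klhdc7a 7.89 ± 0.648 and 5.63 ± 0.516 CPM (adjusted p = 0.0467). The log2 fold changes of these 5 lay between -0.52 and -0.47. At a high level, the endocytic receptor Ly75 was at 162, 167 and 170.0 CPM and 132, 135 and 141 CPM (log2 fold change -0.28 ± 0.039, adjusted p = 0.014).

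Among called genes, the 3 largest fold changes belonged to entries that share reads. RSEM divides a read that fits several genes among them, which leaves counts that are not whole. This was so in 22 of the 108 called genes, 6 higher and 16 lower, beside 14.7% of all genes tested. Hist1h2bq was at 864, 987 and 888 CPM in CTR KD and 378, 296 and 272 CPM in CTR OE (log2 fold change -1.53 ± 0.10, adjusted p = 0.000274). Hist1h2br, a histone H2B gene close by on chromosome 13, differed the other way, with 484, 551 and 508 CPM in CTR KD and 981, 1023 and 1035 CPM in CTR OE (log2 fold change 0.98 ± 0.048, adjusted p = 3.2e-05). They summed to 1428 ± 98.5 CPM in the CTR KD libraries and 1329 ± 26.7 CPM in the CTR OE libraries, a log2 ratio of -0.10, so the pair differed far more in its division than in its total.

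Hist2h3c1, the other histone entry called, was at 18.5, 19.4 and 24.2 CPM in CTR KD and 5.25, 7.59 and 11.3 CPM in CTR OE (log2 fold change -1.35, adjusted p = 0.02). It made up a small part of its sum with Hist2h3c2 and Hist2h3b, which was 464.6 ± 57.2 and 442.2 ± 19.04 CPM. All 69 replication-dependent histone genes together were at 24550 ± 1776 and 23310 ± 591 CPM. Cphx1, the entry with the lowest log2 fold change of all, was at 3.23, 1.45 and 0.457 CPM in CTR KD and 0, 0.0205 and 0 CPM in CTR OE (adjusted p = 0.0284), while Cphx1, Cphx2 and Cphx3 summed to 7.18 ± 0.352 and 6.15 ± 0.400 CPM. Pseudogene entries of the same kind were Rpl31-ps12, at 10.01, 9.08 and 11.4 and 6.24, 6.32 and 5.72 CPM (adjusted p = 0.00865), and Gm6793, at 128, 126 and 123 and 101, 90.2 and 97.4 CPM (adjusted p = 0.00689). These values are uncertain as levels of single genes.

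**Figure D4:**
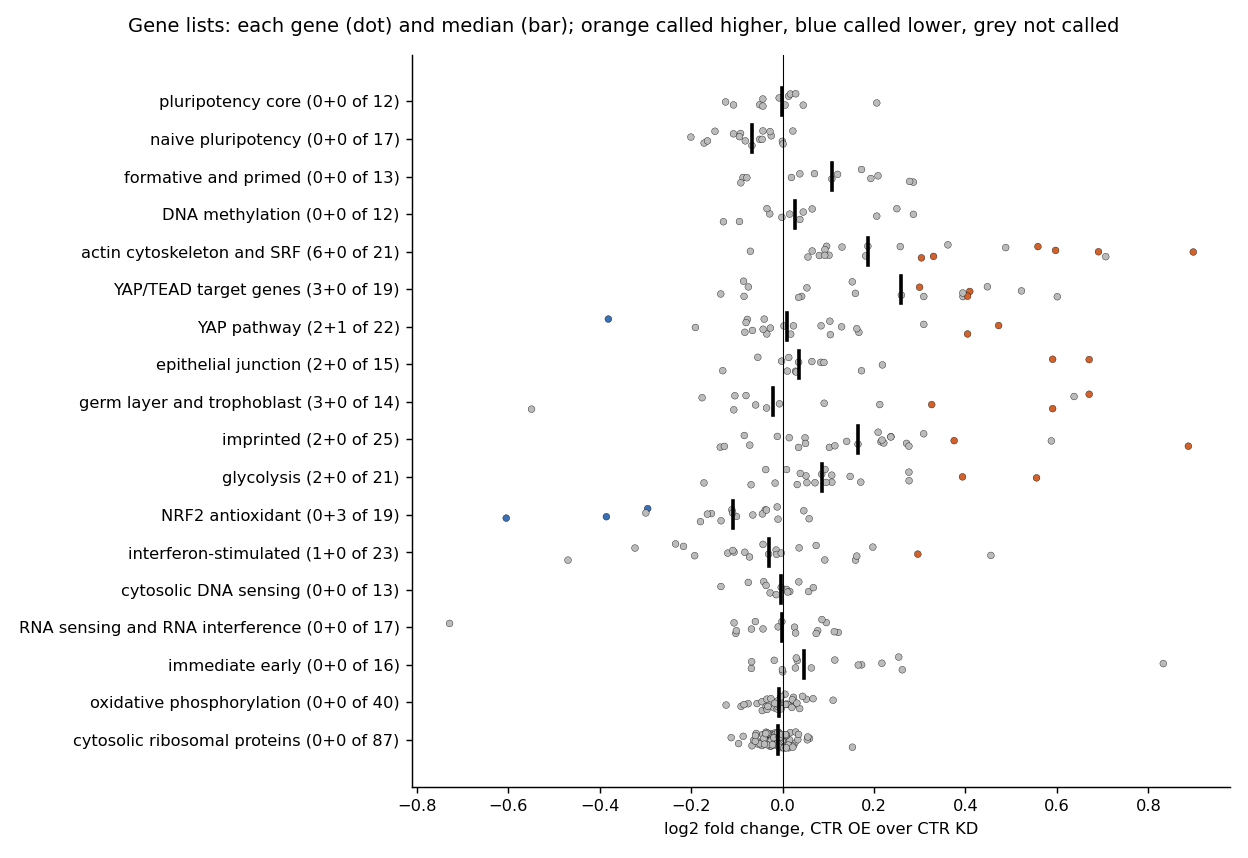
Log2 fold change of CTR OE over CTR KD (x axis) of each tested gene (dot) in 18 gene lists (y axis, with the number called higher plus the number called lower of those tested), with black bars for the medians. The actin and YAP/TEAD lists lie to the right, with medians of 0.19 and 0.26, the NRF2 list to the left with -0.11, and the DNA sensing, RNA sensing and ribosomal protein lists sit around 0.

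Genes that sense foreign DNA or RNA held no call between cells given plasmid and cells given siRNA. Over all genes tested 0.733% were called, so lists of this size would usually hold none and their lack of calls says little. The log2 fold changes of 13 tested genes of cytosolic DNA sensing lay between -0.13 and 0.067 (median -0.0029), and those of 17 genes of RNA sensing and RNA interference between -0.73 and 0.12 (median -0.0015). The interferon-stimulated list had 1 call among 23 tested genes and a median of -0.030. It was Bst2, which encodes the virus-tethering protein tetherin, at 24.8, 25.7 and 23.4 CPM in CTR KD and 30.6, 30.2 and 29.6 CPM in CTR OE (log2 fold change 0.30 ± 0.048, adjusted p = 0.0244). Ifitm3 averaged 100.2 ± 2.98 and 91.9 ± 4.20 CPM (adjusted p = 0.354) and Ddx58, which encodes RIG-I, 42.6 ± 1.49 and 39.5 ± 0.578 CPM (adjusted p = 0.394). Outside the list and named after their values were seen, the guanylate-binding genes Gbp2 (4.39, 4.92 and 5.29 and 6.78, 7.59 and 7.98 CPM, adjusted p = 0.0174) and its neighbour Gbp2b (3.80 ± 0.678 and 5.86 ± 0.275 CPM, adjusted p = 0.0467) were called higher.

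The other stress lists held 1 call or none, as lists of this size would usually do at 0.733% of all genes tested. The p53 list had 1 call of 20, Perp, an apoptosis and desmosome protein, at 25.1 ± 0.557 and 30.6 ± 1.95 CPM (adjusted p = 0.0452), while the p53 target Cdkn1a averaged 7.70 ± 0.684 and 7.18 ± 0.0697 CPM (adjusted p = 0.738). The heat shock list had 1 of 16, Hsph1, a co-chaperone of Hsp70, at 134, 137 and 139 and 161, 164 and 157 CPM (log2 fold change 0.24, adjusted p = 0.0171). In 14 of these 16 the log2 fold change was positive. None was called of 11 NF-kappaB genes, 16 immediate early genes, 28 ATF4 genes, 18 chaperones of the endoplasmic reticulum, 20 lysosome and autophagy genes or 12 genes of LIF and STAT3 signalling. The lists of FGF and ERK feedback (15 tested), Wnt feedback (14), Nodal (9) and basement membrane and matrix (15) held no call either. Without CTR KD replicate 2, none of the DNA sensing and RNA sensing genes was called, whereas 1 NF-kappaB gene and 2 genes each of the ATF4, lysosome and autophagy, FGF and ERK, Nodal and matrix lists were. That fit called 420 of 14838 genes tested, a larger share than the 0.733% of the main fit. The call in the p53 list was lost without any 1 of the other libraries, and that in the heat shock list without some of them.

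The same experiments offer a second pair of libraries, YAP OE and YAP KD, which share no library with the controls but differ in YAP as well. There 3051 of 14687 genes (20.8%) were called. Of the 107 genes called between the controls and tested in both, 87 (81.3%) had the same direction in YAP OE against YAP KD, beside 54.1% of all 14579 genes tested in both. By direction it was 60 of 67 higher genes and 27 of 40 lower genes. Of the 107, 65 were called in the same direction and 5 in the opposite one. The experiment and the YAP level change together here and cannot be told apart.

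Thbs1 was at 20.4, 20.2 and 19.6 CPM in YAP KD and 34.8, 35.8 and 37.3 CPM in YAP OE (log2 fold change 0.85, adjusted p = 1.92e-07), close to its levels in the matching controls. Krt8 averaged 44.3 ± 0.426 and 70.3 ± 6.29 CPM, Tagln 15.9 ± 1.42 and 23.5 ± 2.83 CPM, Igf2 5.14 ± 0.754 and 11.8 ± 0.546 CPM, and Nqo1 11.1 ± 1.05 and 7.66 ± 0.711 CPM. The division of reads between Hist1h2bq and Hist1h2br also went with the experiment, as Hist1h2bq averaged 865 ± 91 CPM in YAP KD and 309 ± 39 CPM in YAP OE and Hist1h2br 482 ± 28.1 and 1017 ± 117 CPM.

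Other genes called between the controls did not pass the test in these libraries. Fosl2 averaged 3.01 ± 0.128 CPM in YAP KD and 2.87 ± 0.462 CPM in YAP OE (log2 fold change -0.068, adjusted p = 0.766), Ldha 304 ± 34 and 315 ± 27.7 CPM (adjusted p = 0.676), Ncl 1435 ± 46.4 and 1339 ± 231 CPM (adjusted p = 0.541) and Scd1 25.5 ± 1.95 and 25 ± 1.24 CPM (adjusted p = 0.828). The 5 genes called in the opposite direction were Slc16a9 (log2 fold change 0.82), Klhdc7a (1.45), Usp46 (0.63), Nes (-0.25) and Car2 (-0.14), of which Usp46 and Car2 were named after their values were seen.

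**Figure D5:**
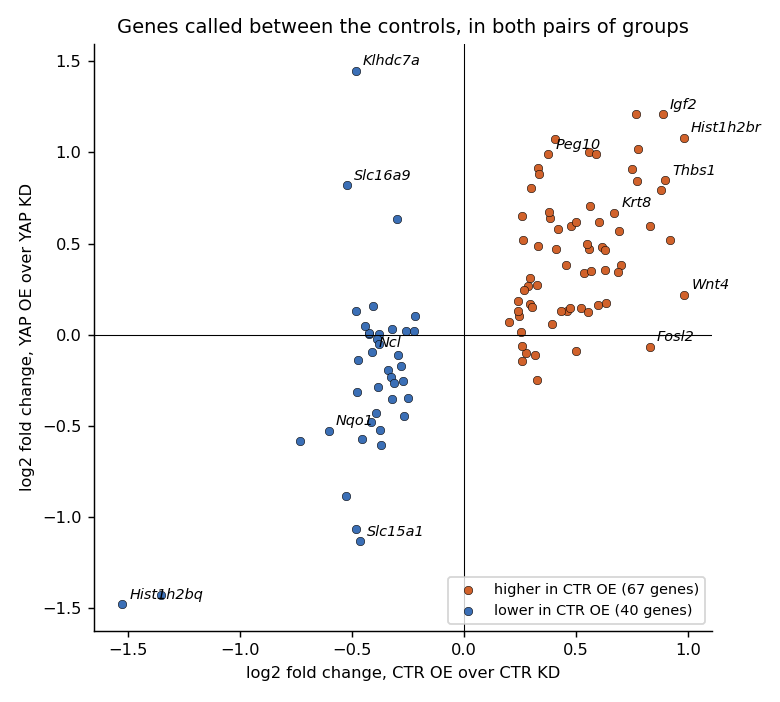
Log2 fold change of YAP OE over YAP KD (y axis) against that of CTR OE over CTR KD (x axis) for the 107 genes called between the controls and tested in both, 67 higher (orange) and 40 lower (blue). Points in the upper right and lower left kept their direction (60 and 27 genes), and Klhdc7a, Slc16a9 and Fosl2 are among those that did not.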

How the data were processed

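RNA-seq of 12 ESC libraries was used, 6 of them controls. Reads were mapped by the authors with STAR to mm10 and quantified with RSEM on curated RefSeq transcripts (versions not given in the sources used here). The deposited expected counts are estimated counts per gene, not normalized, and not whole where a read fits several genes. Genes with counts further than 1e-06 from a whole number were marked. The deposited TPM and FPKM values are scaled by the authors for length and depth; TPM entered an alternative fit and FPKM was not used. Gene and effective lengths were also deposited.

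Expected counts were rounded. The 6 control libraries were filtered (filterByExpr), scaled (TMM) and compared with edgeR 4.0.16 in R 4.3.3 using its quasi-likelihood test for each of 14744 of 24480 genes, without regard to direction and adjusted by Benjamini-Hochberg. Log2 fold changes, SE (absolute log2 fold change over the square root of F) and adjusted p come from this fit, and 95% intervals are 1.96 SE wide on each side. CPM values were scaled over all 12 libraries, and correlations between libraries used log2(CPM + 0.5). YAP OE and YAP KD were compared in the same way. Scripts were tested on simulated data.

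Genes named were the 12 highest and 12 lowest log2 fold changes among called genes averaging 50 expected counts or more and groups that did not overlap, the 6 highest and 6 lowest of at least 100 CPM, Pou5f1, Nanog, Dnmt3l, Yap1 and genes of curated lists, with exceptions stated. The libraries, lists and rules were chosen with earlier results of these data known. Coordinates and promoters are from RefSeq on GRCm38.p6, where all named genes were found by symbol or synonym. Alternatives were other scaling factors and filters, DESeq2 1.42.0, limma-voom (limma 3.58.1), the edgeR exact test, log2(TPM + 1), 1 fit over 12 libraries, exclusion of small RNA entries, length corrections, a fold threshold of 1.2, the replicate block and leaving out each library.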

Additional observations from a re-analysis of the deposited data

How the results depend on the processing

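The 108 genes called between the controls became 171 with DESeq2, 319 with the edgeR exact test and 200 with 1 fit over all 12 libraries, and fell to 40 on log2(TPM + 1) and to 11 when the fold was tested against 1.2 rather than 1. Leaving out 1 library gave between 20 and 420. With the replicate number as a replicate block 37 genes were called. The deviations of same-numbered control libraries from their group means correlated at -0.238, -0.305 and -0.0822. With 3 libraries per group these values cannot settle whether same-numbered libraries belong together. Other scaling factors and filters, limma-voom, exclusion of small RNA entries and both length corrections gave between 96 and 159. On log2(TPM + 1) 80% of the calls were higher, beside 62% in the main result. The 3051 genes called between YAP OE and YAP KD ranged from 2108 to 2603 when 1 library was left out and from 2439 to 3172 otherwise. No named gene that was called changed direction under any alternative, and 11 of the 108 were called under all 15 alternatives that left no library out. Genes near 0 that were not called changed sign: Pou5f1 (-0.013 without CTR KD replicate 1, and at most 0.040 without another library) and Hmox1 (-0.0024 without CTR OE replicate 1, and at most 0.099 without another library). The cause of these shifts was not tested. With 3 libraries per group, the smallest absolute log2 fold change called in the main fit was 0.203. It is not a limit of detection, as larger ones such as those of Cyr61 (0.39) and Lars2 (1.43) were not called. Tfcp2l1, at -0.16 in the main fit, was called under 3 of the 15 alternatives that left no library out.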

Other observations

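No cell cycle gene was called between the controls, among 24 genes of DNA replication and S phase (median log2 fold change 0.0082), 22 of G2 and mitosis (median 0.047) or 15 of G1 and cell cycle inhibitors (median -0.023). All 22 G2 and mitosis genes had a positive log2 fold change, between 0.0036 and 0.14, beside 7769 of all 14744 genes tested. Signs can thus be one-sided in a list whose differences are small. With 0.733% of all genes tested called, lists of this size would usually hold no call. Without CTR KD replicate 2, 1, 2 and 1 genes of these lists were called, all higher. None was called of 16 tested genes of the 2-cell-stage programme, which flickers on in a small share of ESCs, with a median of 0.20. Their sum lay between 53.3 and 64.5 CPM in CTR KD and between 58.7 and 75.4 CPM in CTR OE. None of 16 germline genes kept silent by promoter methylation was called (median 0.0058).

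Lars2, the mitochondrial leucyl-tRNA synthetase, was singled out after its values were seen. It was at 199.9, 177 and 146 CPM in CTR KD and at 304, 782 and 320.1 CPM in CTR OE (log2 fold change 1.43 ± 0.31, adjusted p = 0.0894). CTR OE replicate 2 was far above the other CTR OE libraries, and no CTR OE library was within the CTR KD range. The other genes of the mitochondrial tRNA synthetase list were not called either with all 6 libraries, and the list median was 0.042. In YAP KD Lars2 was at 72.2, 154 and 83.5 CPM and in YAP OE at 168, 243 and 147 CPM, so it varied widely within each group.

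The core of the interferon-stimulated response element, 2 copies of GAAA with 2 bases between them on either strand, occurred in the windows of 7 of 49 genes called higher (14.3%), in none of 30 called lower, in 3.43% of genes tested and in 3.44% of all windows. The 7 genes were Bst2, Fosl2, Gbp2, Gbp2b, Igf2, Itga3 and Kif1a. TGACTCA, the AP-1 element, which can overlap TGACNNNGC, occurred in 4 of 49 (8.16%), in 2 of 30 (6.67%), in 4.47% of genes tested and in 5.2% of all windows. These are counts of letters, and no test was made of them.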
